A study of Mus musculus with 10 samples.

Results

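The broad accessible regions of the sperm genome were the stretches of at least 1000 bp that the peaks of several libraries covered together. The peak intervals of 10 ATAC-seq libraries were merged where they overlapped by at least 1 bp, which gave 113493 merged regions. Regions were kept if they lay on chromosomes 1 to 19, were at least 1000 bp wide and had a peak in 2 to 9 libraries, and 73 regions passed. Width and number of libraries are thus the measured values that the regions were chosen by, and neither is tested against other regions. The comparisons of diets use detection and bases under peaks, which the rule drew on without regard to diet. The libraries came from mature sperm of the cauda epididymis of wild type C57BL/6JRccHsd males, 1 library per mouse. Males of the control group (F0 CD, n = 6) ate chow, and males of the Western diet group (F0 WD, n = 4) ate diet #D12079B, with 40% of its energy from fat and 43% from carbohydrates, from 4 weeks of age for 6 months. The sample titles give 6 chow and 4 Western diet libraries, whereas the protocol text of the same records gives these numbers the other way round. The titles were followed.

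ATAC-seq marks open chromatin by the cuts that the Tn5 transposase makes where DNA is not wrapped tightly. In sperm most histones are replaced by protamines, small basic proteins that pack the genome, and nucleosomes or open sites remain at a limited number of places. Mammalian genomes also hold tandem repeats, in which a short unit follows itself many times. Microsatellites have units of a few bases, such as CA, minisatellites have longer units, and the telomere is an array of TTAGGG units. Software that masks repeats writes such bases in lower case in the reference genome, and reads from them can be hard to place.

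The lists held 13366 to 29532 peaks per library, and the number of broad regions with a peak followed list length across the 10 libraries (Spearman's rho = 0.97, as a description). Read depth was not recorded in the lists. The reads at each summit could be solved from the fold enrichment and the p value for all 844 summits in the broad regions, and the strongest summit of a region in a library held 9 to 45 reads, with a median of 18. At this depth a missing peak does not show that a region was closed. The start sites of 12 sperm and late spermatid marker genes, the protamines Prm1 and Prm2 among them, had no peak within 1 kb in any library. Among markers of other cells, Lcn5 of the epididymal epithelium and Itgam of leukocytes each had one in 1 library, 2 of 5 early germ cell genes (Kit in 1 library and Stra8 in 2) had one, and Cdh1 and Ptprc had none. The marker genes thus neither identify nor separate the cells in these peak lists, and the part of other cells in the broad regions was not tested. For its sperm preparations the paper reports qPCR in which Kit and Cdh1 (E-cadherin) were not detected. It also reports that its control data resembled published ATAC-seq of sperm.

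Repeated units could be read directly from the sequence of some broad regions. The 151 bases centred on the strongest summit, which is base 76, are shown from GRCm38 (mm10), plus strand, with capitals where the region's most frequent repeated unit runs without a mismatch for at least 10 bp and at least 1 unit. The first 2 are the widest regions, and the next 2 are the region with the most summits (19) and one of the 4 regions with 18.
Dock1 intron, chr7:134859865-134860015: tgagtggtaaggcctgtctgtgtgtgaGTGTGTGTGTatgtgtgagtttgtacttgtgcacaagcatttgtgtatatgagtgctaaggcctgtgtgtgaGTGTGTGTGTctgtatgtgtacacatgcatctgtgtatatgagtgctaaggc
Ccdc57 intron, chr11:120855585-120855735: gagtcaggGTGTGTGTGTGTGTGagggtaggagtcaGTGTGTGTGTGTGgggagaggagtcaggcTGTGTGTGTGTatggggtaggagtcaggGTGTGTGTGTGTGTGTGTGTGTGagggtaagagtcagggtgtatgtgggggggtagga
Myof intron, chr19:37993393-37993543: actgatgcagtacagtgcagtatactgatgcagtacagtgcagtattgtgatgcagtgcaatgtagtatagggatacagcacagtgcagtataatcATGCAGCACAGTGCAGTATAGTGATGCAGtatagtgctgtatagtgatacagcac
near Vmn2r125, chr4:156357868-156358018: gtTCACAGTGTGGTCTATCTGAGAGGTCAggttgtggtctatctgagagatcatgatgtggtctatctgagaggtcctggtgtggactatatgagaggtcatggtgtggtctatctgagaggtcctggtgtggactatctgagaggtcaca
In the Dock1 and Ccdc57 sequences the capitals are runs of GT. In the Myof and Vmn2r125 sequences they are exact stretches of units of 23 bp and 24 bp.

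The next 5 were chosen after their values were seen, since they show the kinds of unit that the CA and TG arrays do not. They are a telomere-like array, a GC-rich unit of 29 bp, a unit of 26 bp near an immunoglobulin gene, and a unit of 30 bp at 2 places on different chromosomes.
near Jazf1, chr6:53084027-53084177: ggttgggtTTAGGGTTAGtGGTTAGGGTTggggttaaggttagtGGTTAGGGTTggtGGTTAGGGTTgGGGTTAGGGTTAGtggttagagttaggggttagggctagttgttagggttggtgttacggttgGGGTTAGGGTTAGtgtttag
Itpr2 intron, chr6:146402638-146402788: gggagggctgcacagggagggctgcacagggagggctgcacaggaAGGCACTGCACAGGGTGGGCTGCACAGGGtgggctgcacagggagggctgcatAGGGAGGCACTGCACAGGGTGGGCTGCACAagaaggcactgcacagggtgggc
near Ighg2c, chr12:113294979-113295129: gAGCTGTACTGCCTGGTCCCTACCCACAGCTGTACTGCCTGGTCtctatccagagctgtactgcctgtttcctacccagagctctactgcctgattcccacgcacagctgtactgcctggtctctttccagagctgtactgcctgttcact
near Slc7a15, chr12:8607319-8607469: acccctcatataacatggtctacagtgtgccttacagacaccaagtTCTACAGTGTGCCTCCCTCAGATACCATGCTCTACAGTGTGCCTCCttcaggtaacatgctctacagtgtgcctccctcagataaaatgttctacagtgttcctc
Gm47873 pseudogene exon, chr9:21878782-21878932: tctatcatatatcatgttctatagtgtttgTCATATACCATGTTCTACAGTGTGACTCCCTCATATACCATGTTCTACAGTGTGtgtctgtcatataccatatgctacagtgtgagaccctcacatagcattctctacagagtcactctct
The units of the last 2 regions matched at 27 of 30 bases when turned to their best rotation, although the regions lie on chromosomes 12 and 9. The other 11 pairs of regions with equal units of 17 bp or more that were compared matched at 40 to 70% of bases.

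Tandem repetition was measured as the largest share of bases that equal the base a fixed distance away within the same region, over distances of up to 400 bp, and the smallest distance within 0.03 of that share was taken as the unit. A share of 0.40 or more was called an array, a limit set after the values were seen. Of the 73 broad regions, 66 were arrays (90.4%). Units of 2 bp were found in 26 regions, 25 of them with AC (the same unit as CA, TG or GT) as the most frequent pair and 1 with AG. Units of 9 bp or more were found in 28 regions, up to 56 bp in an intron of Lrrk2 at chr15:91785651-91786656, which had the highest share of matching bases (0.87), and 353 bp in an intron of Cd209c. Some units were multiples of a shorter one, so the counts by unit length are approximate. The most frequent unit of 20 bp at chr12:78940487-78941496 was made of copies of ACAGC, and the unit of 4 bp in 2 regions was ACAC. Arrays of the telomere unit were found in 2 regions, near Jazf1 at chr6:53083711-53084950 with 74 exact TTAGGG or CCCTAA words and at chr5:109662693-109663841 with 50.

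The arrays were divided into 2 kinds by base content. In 27 regions at least 50% of neighbouring base pairs were CA or AC on one strand, a limit also set after the values were seen, and their median width was 1083 bp. In 39 regions, with a median width of 1153 bp, the share was lower. The shares ran from 50.5 to 77.8% in the first kind and from 16.7 to 49.9% in the second, without a gap at the limit. Units of 2 bp were found in 16 of the 39, so the second kind also holds CA and TG arrays, such as the Dock1 and Ccdc57 regions. The CA/TG-rich arrays were repeat-masked over a median of 97.1% of their bases (range 59.8 to 100%), and the other arrays over 45.0% (0 to 91.4%). By unit length, the 38 arrays with units of 2 to 8 bp were masked over a median of 89.8% (19.9 to 100%), and the 28 arrays with units of 9 bp or more over 20.5% (0 to 100%). Over 90% of the bases were masked in 7 of these 28, the Ramp3 and Scube1 regions described below among them. No base was masked in 7 of these 28, the Itpr2, Lrrk2 and Ighg2c regions among them. The plot of unit length against repeat masking shows this overlap.

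**Figure D1:**
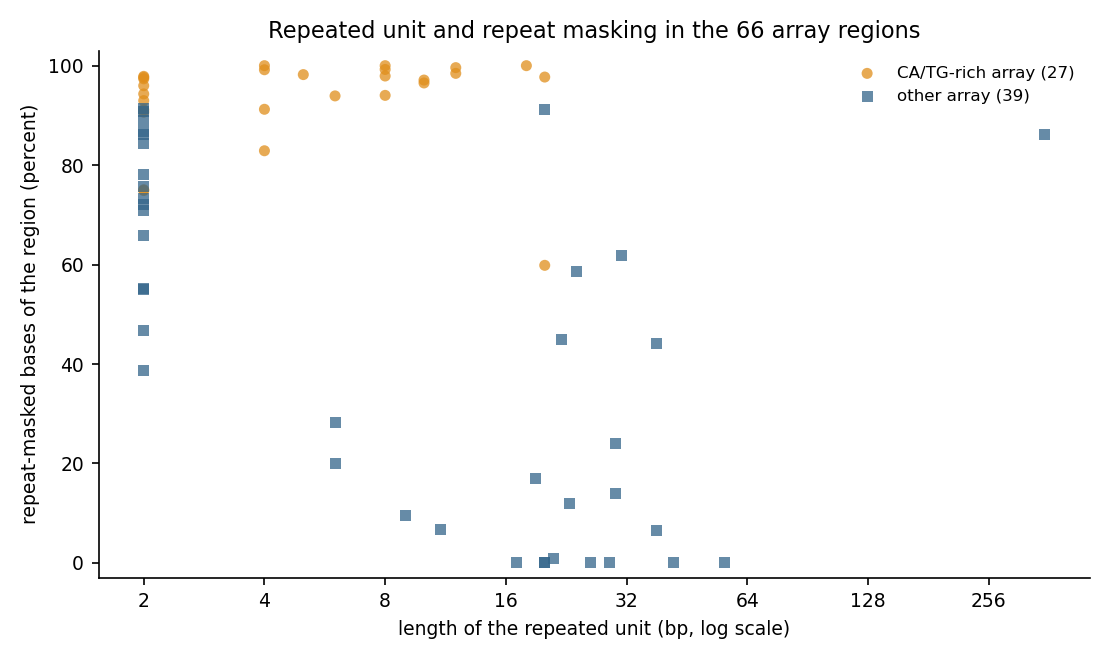
Length of the repeated unit in bp (log scale) against the percent of repeat-masked bases, for the 66 array regions; each point is a region, orange circles are the 27 CA/TG-rich arrays and blue squares the 39 others. Arrays with units of 2 to 8 bp have a median of 89.8%, and those with units of 9 bp or more a median of 20.5%, with 7 at 0 and 7 above 90%.

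For a comparison with other regions, the same measure was taken in the 1000 bp centred on each region, so that all had the same length. The 23967 other autosomal regions in 2 to 9 libraries are narrower, and their windows include flanking bases. The median share of matching bases was 0.66 in the broad regions and 0.39 in the others, and 90.4% against 44.9% reached 0.40. The number of libraries moved with this share as well. Among the 2451 narrower regions with a peak in 7 to 9 libraries, 88.7% reached 0.40, close to the 96.7% of the 60 broad regions in 7 to 9 libraries. The strength of the repeat differed more. The median share was 0.48 in the narrower regions and 0.69 in the broad ones, windows in which at least 50% of base pairs were CA/TG steps made up 9.38% and 48.3%, and arrays with a unit of 9 bp or more 7.87% and 53.3%. The regions' own bases, without flanks, gave another order for CA/TG steps. Their median share was 55.9% in the narrower regions in 7 to 9 libraries and 44.6% in the 73 broad regions. It was 42.7% in the other regions in 2 to 9 libraries. In the 46 regions of at least 1000 bp found in all 10 libraries the median share was 0.68, and 50% of windows were of the CA/TG kind. These shares are descriptions, since long arrays and wide regions are linked by the rule itself. Runs of at least 10 CA or TG units in a row without a mismatch, searched in the region's own bases, occurred in 46.6% of the broad regions and 47.7% of the other regions in 2 to 9 libraries, although the broad regions are longer. The longest such run had a median of 0 bp, meaning no run, in both of these sets. It had a median of 24 bp in the narrower regions in 7 to 9 libraries.

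**Figure D2:**
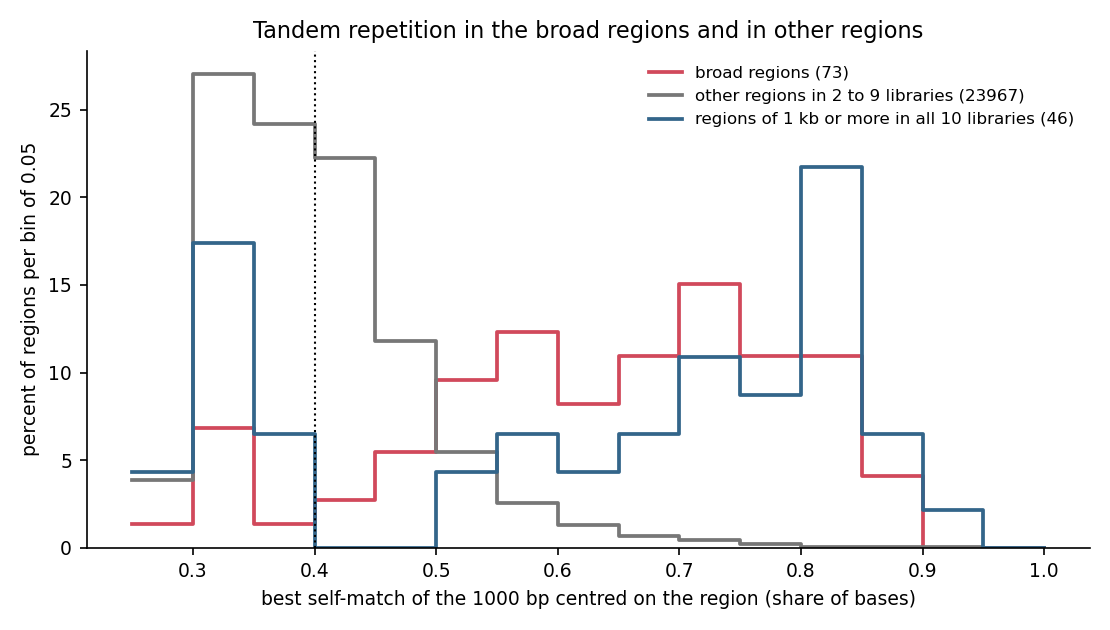
Share of bases that equal the base one unit away in the 1000 bp centred on each region (x axis, bins of 0.05) against the percent of regions in each bin, for the 73 broad regions (red), 23967 other autosomal regions in 2 to 9 libraries (grey) and 46 autosomal regions of at least 1000 bp in all 10 libraries (blue). The dotted line is the limit of 0.40; the broad regions lie mostly above it, with a median of 0.66, and the grey regions around it, with a median of 0.39.

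The same repeats bear on how reads were placed. A median of 78.2% of the 31-base words of a broad region occurred once on chromosomes 1 to 19, X and Y, against 87.3% in the other regions in 2 to 9 libraries. In 7 to 9 libraries it was 74.8% in the broad regions and 78.1% in the narrower ones, and under 50% of the words were unique in 16.7% and 26.3% of regions. The CA/TG-rich arrays had a median of 57.0% of unique words (7.84 to 96.8%) and the other arrays 85.3% (40.3 to 100%). Up to 20 alignments per read pair were searched and alignments of quality under 5 were removed, and the effect of this on the regions was not tested. The median GC content was 46.4% in the broad regions and 46.1% in the others. The broad regions held few CpG sites, with a median of 3, and none had both a GC content above 50% and a ratio of observed to expected CpG above 0.6, the usual marks of a CpG island.

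The 73 broad regions were 1002 to 1583 bp wide, with a median of 1106 bp, and covered 84.858 kb in all. The 3 narrowest were 1002, 1005 and 1006 bp, and the 3 regions just under the limit were 998, 996 and 993 bp. No broad region had peaks in only 2 libraries, 2 had peaks in 3, 28 in 9, and 60 of the 73 in 7 to 9. A further 46 autosomal regions of at least 1000 bp had a peak in all 10 libraries and fall outside the rule.

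Few of the broad regions were spanned by a single wide peak. The 726 peaks of single lists in the broad regions had a median width of 332 bp (quartiles 253 and 484 bp), and 13 of them, in 10 regions, were themselves 1000 bp or wider. The median peak in the other regions in 2 to 9 libraries was 256 bp wide. The widest single peak spanned a median of 65.5% of its broad region. In 61 of the 73 broad regions no base lay under a peak of every library that detected the region. For pairs of libraries that both had a peak in a broad region, the peaks overlapped in 84.2% of 1955 cases, against 97.7% of 65492 in the narrower regions in 7 to 9 libraries. The strongest summits of the libraries spread over a median of 772 bp in a broad region and 232 bp in those narrower regions. In the 46 regions of at least 1000 bp found in all 10 libraries, the peaks overlapped in 96.9% of 2070 cases and the summits spread over a median of 659.5 bp. A base under a peak of every library was found in 29 of these 46, and their widest single peak spanned a median of 92.0%. The 46 were taken by their peaks in every library, and the narrower regions leave less room for such a spread. The comparisons thus describe the regions and do not test them.

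**Figure D3:**
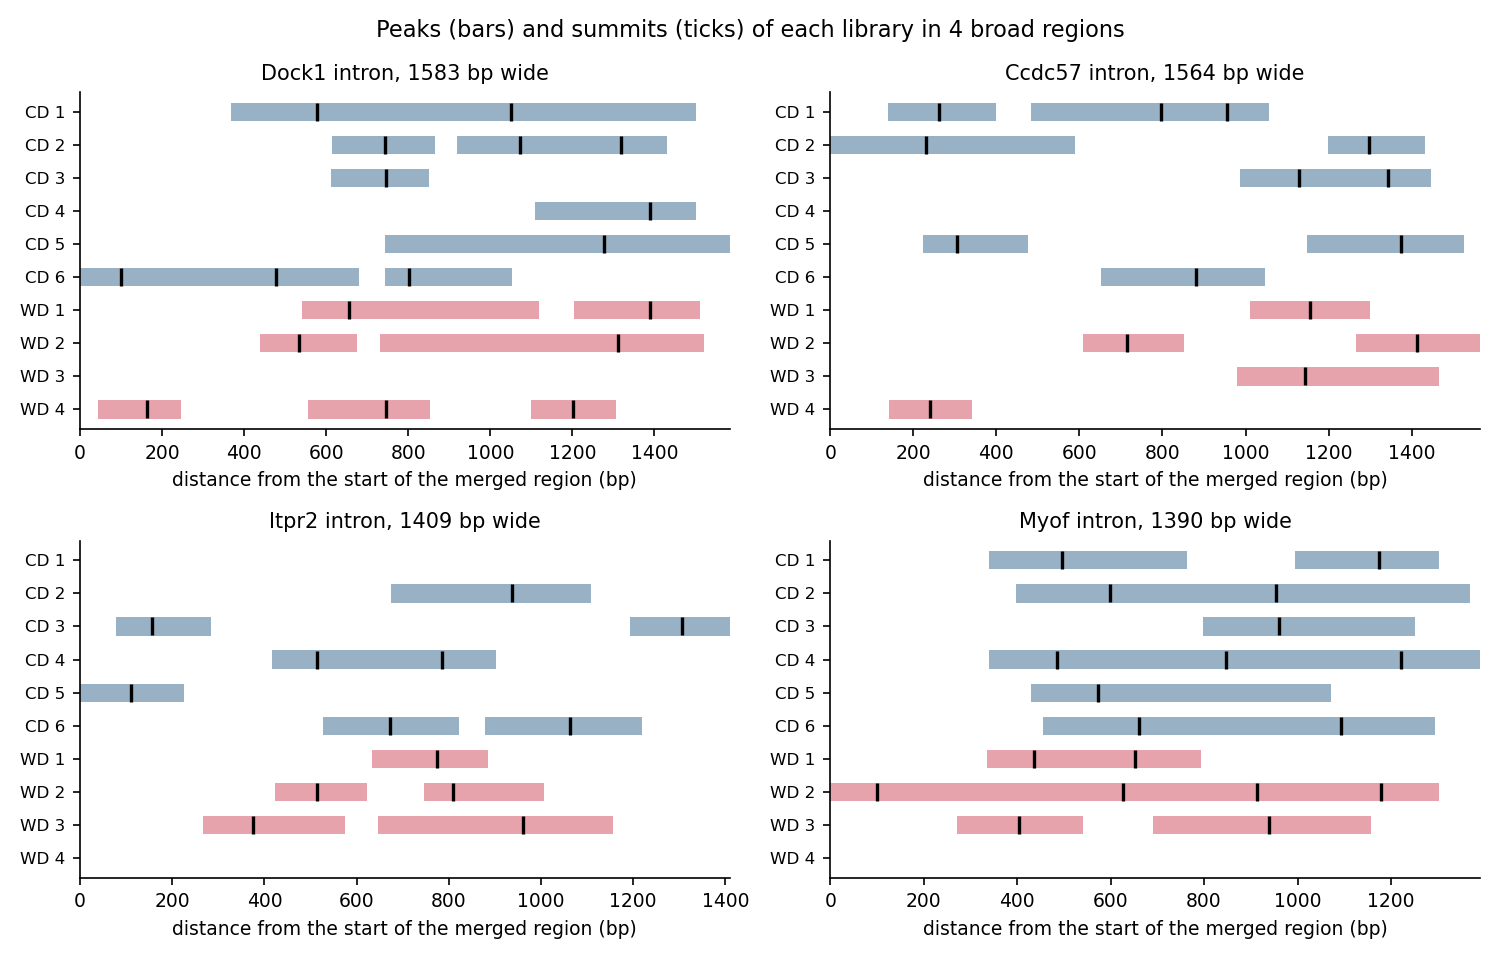
Peaks (bars) and summits (black ticks) of each library, F0 CD in blue and F0 WD in red, along 4 broad regions; the x axis is the distance from the start of the merged region in bp and each row is a library. In the Itpr2 region the peaks of different mice lie at different places and overlap in 64.3% of 28 pairs of libraries, and in the Myof region they overlap in 97.2% of 36 pairs.

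Several summits per region were common. A broad region with a peak in a library held 1.5 summits in that library on average, and 42.6% of the 561 cases had at least 2 summits, against 1.03 summits and 3.32% in the other regions in 2 to 9 libraries. The 46 regions of at least 1000 bp found in all 10 libraries held more, with 2.15 summits and 73.3%. Narrower regions leave less room for 2 summits, so these values describe the regions and do not test them. The fold enrichment of the strongest summit over the local background, which the peak caller computes with a pseudocount of 1, was like that elsewhere. Its median was 4.03 in the broad regions, 4.06 in the other regions and 4.76 in the 46 regions found in every library, and no summit of a broad region exceeded 6.70.

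The region with the most summits (19 over 9 libraries) lay in an intron of Myof, a gene for a membrane repair protein of the ferlin family, at chr19:37992973-37994362. Its peaks covered 730, 973, 453, 1050, 642 and 839 bp in F0 CD replicates 1 to 6 and 459, 1302, 735 and 0 bp in F0 WD replicates 1 to 4. It also held the widest peak of all the broad regions, in F0 WD replicate 2, with 4 summits. F0 WD replicate 4, the library with the shortest list, had no peak there.

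The widest region (1583 bp) lay in an intron of Dock1, which encodes an activator of the small GTPase Rac, at chr7:134858630-134860212 and had 18 summits. Its peaks covered 1135, 762, 238, 394, 839 and 990 bp in F0 CD and 885, 1024, 0 and 707 bp in F0 WD. The values of both diets overlapped. Next came an intron of Ccdc57 at chr11:120854248-120855811 (1564 bp) with 834, 822, 461, 0, 632 and 393 bp in F0 CD and 288, 544, 485 and 200 bp in F0 WD. No peak of a single library spanned more than 590 bp there. The next was an intergenic CA/TG-rich array 12603 bp from the start of Scube1 at chr15:83737624-83739141 (1518 bp), where peaks covered 868, 1196, 629, 0, 548 and 278 bp in F0 CD and 474, 404, 778 and 266 bp in F0 WD.

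The other 7 of the 10 widest regions were 1368 to 1517 bp wide, and 6 of them were arrays with units of 23 to 30 bp. They lay in introns of Itpr2 (an inositol trisphosphate receptor that releases calcium) and Myof, in an exon of the pseudogene Gm47873, and in intergenic sequence near Slc7a15, near the vomeronasal receptor pseudogene Vmn2r125 and 4949 bp from Ighg2c, an immunoglobulin heavy chain constant gene. The region near Vmn2r125, at chr4:156356750-156358124, had 18 summits in 16 peaks, of which the widest was 614 bp. The region at chr8:71130094-71131269 and one in an intron of Armc4 at chr18:7092610-7093707 also had 18 summits each. The other, at chr17:13540027-13541543 in the long noncoding gene 2700054A10Rik, was no array.

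Of the 5 broad regions with the highest fold enrichment, the Myof region was also among the 10 widest. The median over libraries of the strongest summit was 4.88 at chr6:144850350-144851370, between genes with Sox5, a transcription factor gene, as the nearest coding gene, 4.87 in the Myof region, 4.79 at chr10:40536375-40537447, 4.77 at chr16:51112990-51114028 and 4.71 at chr13:107119352-107120434. The chr10 region had peaks in only 3 libraries. Values for all 73 regions lay between 3.24 and 4.88.

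The 7 broad regions that were not arrays had shares of matching bases from 0.30 to 0.39. They were seen in fewer libraries, with a median of 5 against 8 in both kinds of array, and no array with a unit of 9 bp or more had peaks in fewer than 7. The region in 2700054A10Rik had peaks in all 6 F0 CD and 3 F0 WD libraries and reached 45 reads at its strongest summit, the most of any broad region. Its sequence is shown, without capitals, as that of a region that is no array, and 12.5% of its bases were masked.
2700054A10Rik exon, chr17:13540568-13540718: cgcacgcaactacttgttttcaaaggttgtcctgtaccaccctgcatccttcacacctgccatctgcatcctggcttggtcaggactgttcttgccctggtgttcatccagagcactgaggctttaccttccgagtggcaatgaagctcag
Its peaks covered 780, 275, 1109, 230, 202 and 706 bp in F0 CD and 513, 0, 204 and 305 bp in F0 WD. The region at chr8:71130094-71131269 also had peaks in 9 libraries and 18 summits, with 533, 917, 477, 489, 766 and 671 bp covered in F0 CD and 1051, 0, 808 and 992 bp in F0 WD. F0 WD replicate 2 was the library without a peak in both. The remaining 5 had peaks in 3 to 6 libraries. They lay in an intron of Ispd, a gene needed for the sugar chains of dystroglycan, in an intron of C230088H06Rik at chr4:147095545-147096631, where 26.7% of the 31-base words were unique, and between genes, with Pcdh7, Slc22a16 and the acetylcholine receptor gene Chrna4 as the nearest coding genes.

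Few broad regions lay at genes' start sites, and few of the other regions in 2 to 9 libraries did. GENCODE M21 placed 39 of the 73 between genes, 32 in introns and 2 in exons, of a long noncoding gene and a pseudogene. No start site of any gene lay inside a broad region, where 0.776% of the other regions in 2 to 9 libraries held one. A start site lay within 1 kb of 3 broad regions (4.11%), against 6.60% of the others. None of these was of a coding gene, where 3.78% of the others had a coding one. With 73 regions these shares do not set the broad regions apart from those regions. The median distance to the nearest coding start site was 33523 bp, close to the 33500 bp of those regions. Of the 46 broad regions found in every library, 6 held a start site and 9 had one within 1 kb. The broad regions were spread over all 19 autosomes. Coding genes were overlapped by 44.0% of the other regions in 2 to 9 libraries and by 25 (34.2%) of the broad regions. Among these genes were Runx1, a transcription factor of blood cell formation, Fkbp5, a co-chaperone of the glucocorticoid receptor, Lrrk2, a kinase linked to Parkinson's disease, Cacna1d and Kcnh1, which encode calcium and potassium channel subunits, and Piezo2, a mechanically gated channel. They are named for where the regions lie, and sperm peaks in an intron do not show that the gene was regulated.

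Gene lists for 7 groups were compared with the nearest coding gene of each broad region. A gene of the lists for energy metabolism and insulin signalling (46 genes), epididymal epithelium, histones, imprinted genes, leukocytes, ribosomal proteins, and sperm and late spermatids was the nearest of none of the 73 regions. Each of these lists held the nearest coding gene of 0.0209 to 0.451% of the other regions in 2 to 9 libraries, so that a count of 0 among 73 regions tells nothing about the broad ones. No gene of these lists had its start site within 1 kb of a broad region.

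The comparison of diets asked whether the broad regions were open in more libraries, or over more bases, after a Western diet. By Fisher's exact test (two-sided, over all 24763 regions in at least 2 libraries) 0 of the 73 broad regions had an unadjusted p under 0.05 toward F0 WD, where 0.553% of all regions did, and 0 toward F0 CD, where 0.468% did. The number of libraries that the regions were chosen by fixed most of this, since only 7 of the 73 could have reached 0.05 toward F0 WD and 23 toward F0 CD, and none of the 47 in 8 or 9 libraries could in either direction. The counts of 0 are therefore no result about the broad regions. The lowest exact p among the broad regions was 0.133, for 3 regions with peaks in 6 of 6 F0 CD and 2 of 4 F0 WD libraries, on chromosome 1 in an intron of Kcnh1, on chromosome 9 in an intron of Minar1 and in the Lyzl4 intron described next. No region of the series passed after Benjamini-Hochberg adjustment. All 4 F0 WD libraries had a peak in 23 broad regions, and all 6 F0 CD libraries in 16, counts that 4 and 6 libraries do not make comparable.

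The bases under peaks were compared by an exact permutation test (two-sided) over all 210 assignments of 6 and 4 libraries. In 3 of the 73 broad regions more bases were covered in F0 CD at an unadjusted p under 0.05, against 0.828% of all regions tested, and 0 of the 73 in F0 WD, against 0.767%. The rule bears on these counts too, since covered bases depend on width and number of libraries. The broad regions had peaks in a median of 8 libraries, and the other regions in 2 to 9 libraries in 3. Few libraries with a peak limit how low the p can be. The shares are thus not comparable, and the count of 3 is no result about the broad regions as a set. None of the exact permutation tests passed after Benjamini-Hochberg adjustment over 24763 regions (adjusted p = 1 for each). The mean was higher in F0 CD in 46 of the 73 broad regions and in 12740 of all 24763 regions.

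The first of these 3 was a CA/TG-rich array with a unit of 18 bp, 8618 bp from the start of Ramp3, which encodes a partner protein of calcitonin family receptors, at chr11:6648619-6649903.
Its peaks covered 821, 864, 689, 756, 871 and 969 bp in F0 CD and 462, 829, 426 and 0 bp in F0 WD. All F0 CD libraries lay above 3 of the 4 F0 WD libraries, and F0 WD replicate 2 lay within the F0 CD range. The F0 CD mean was 828 ± 97.5 bp (SD, n = 6), and the F0 WD mean was 429 ± 339 bp (SD, n = 4), with an exact permutation p of 0.0190. It stayed under 0.05 when any single library was left out, F0 WD replicate 4 with the shortest list included. The strongest summit had a fold enrichment of 3.53 to 5.13 in F0 CD and, in the 3 F0 WD libraries with a peak, 4.12 to 4.87, so the heights of the peaks overlapped where the covered bases differed.

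The second was an AC array 4233 bp from the start of Hibadh, an enzyme of valine breakdown, at chr6:52644622-52645659.
near Hibadh, chr6:52645265-52645415: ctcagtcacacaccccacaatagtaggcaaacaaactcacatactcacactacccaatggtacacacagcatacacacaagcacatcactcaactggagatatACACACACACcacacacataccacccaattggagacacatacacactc
Peaks covered 530, 765, 529, 485, 344 and 518 bp in F0 CD and 505, 332, 250 and 0 bp in F0 WD (exact permutation p = 0.0286). F0 WD replicate 1 lay within the F0 CD range, and the other 3 lay below it. The F0 CD mean was 529 ± 136 bp (SD, n = 6), and the F0 WD mean was 272 ± 210 bp (SD, n = 4).

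The third lay in an intron of Lyzl4, a lysozyme-like gene of sperm, and of its antisense gene Lyzl4os, at chr9:121606290-121607312, and had a unit of 38 bp with the lowest share of matching bases of the arrays (0.42), of which the window shown holds no exact copy.
Lyzl4 intron, chr9:121606845-121606995: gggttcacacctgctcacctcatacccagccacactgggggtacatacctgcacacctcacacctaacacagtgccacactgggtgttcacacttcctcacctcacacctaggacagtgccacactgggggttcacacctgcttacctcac
Peaks covered 279, 501, 200, 253, 451 and 509 bp in F0 CD and 0, 0, 200 and 268 bp in F0 WD (exact permutation p = 0.0476). The values of both groups overlapped, and F0 WD replicates 1 and 2 had no peak. The Hibadh region lost its call without any one of 5 libraries and the Lyzl4 region without any one of 6.

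**Figure D4:**
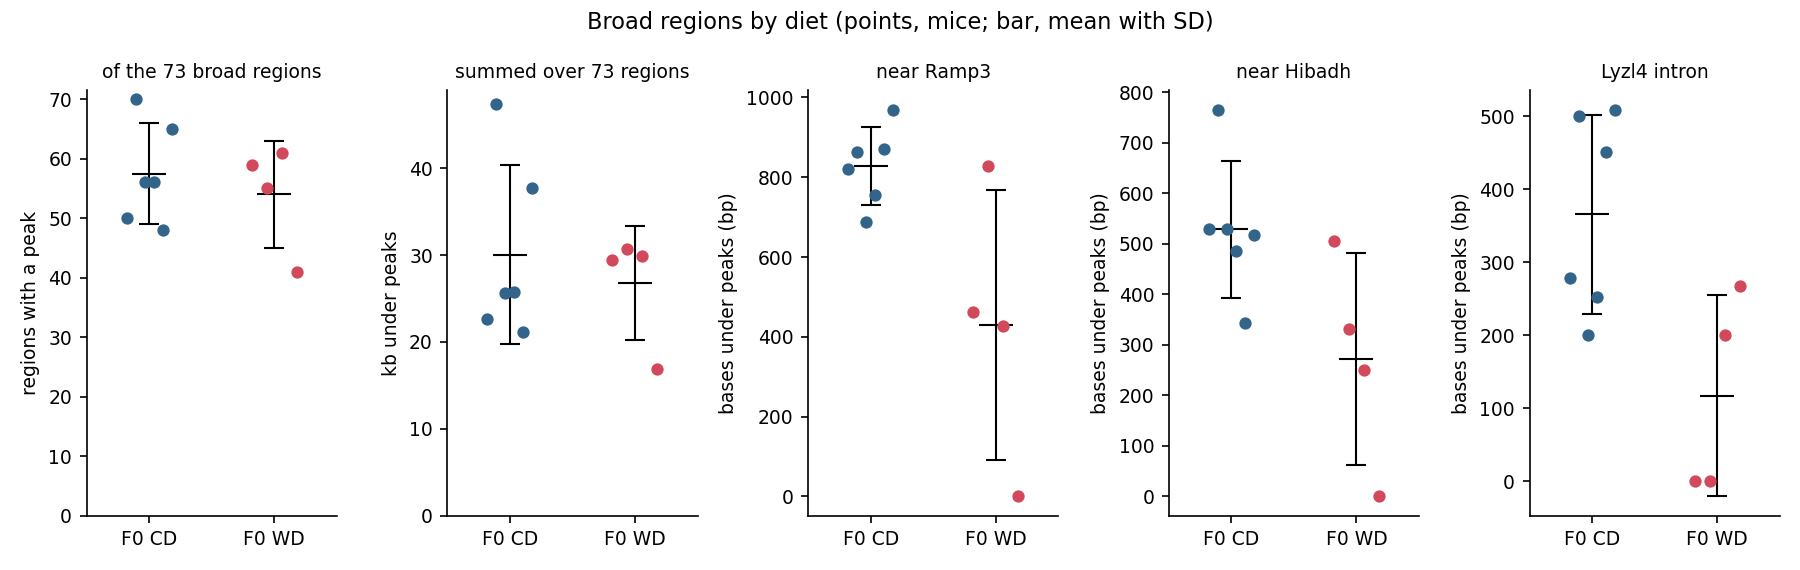
Each point is a mouse, F0 CD (n = 6) in blue and F0 WD (n = 4) in red, with the mean and SD in black; from left, the number of the 73 broad regions with a peak, the kb under peaks summed over them, and the bases under peaks in bp in the regions near Ramp3, near Hibadh and in the Lyzl4 intron. The groups overlap in every panel, and F0 WD replicate 4 is the lowest point in the first 4.

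Over all the broad regions the libraries of both diets overlapped. A peak was found in 50, 70, 56, 56, 48 and 65 of the 73 broad regions in F0 CD replicates 1 to 6 and in 59, 55, 61 and 41 in F0 WD replicates 1 to 4. F0 CD replicate 2, with the longest list, had the most and F0 WD replicate 4, with the shortest, the fewest. The means were 57.5 ± 8.53 (SD, n = 6) and 54.0 ± 9.02 (SD, n = 4), with an exact permutation p of 0.548 (two-sided). Of the broad regions, peaks of an F0 CD library covered 30.0 ± 10.3 kb (SD, n = 6) and those of an F0 WD library 26.7 ± 6.57 kb (SD, n = 4, exact permutation p = 0.614). As a share of each list, 0.404 ± 0.0525% of the peaks in F0 CD and 0.420 ± 0.0381% in F0 WD lay in broad regions (exact permutation p = 0.652). F0 CD replicate 2, with the longest list, had the lowest share (0.315%). Without it the difference, F0 WD minus F0 CD, turned to -0.00200. Whether the division by list length removes its effect was not tested.

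The shape of the peaks in the broad regions was compared in the same way. The median single-list peak was 347 ± 49.2 bp wide in F0 CD and 321 ± 38.3 bp in F0 WD (exact permutation p = 0.414), and regions with a peak held 1.49 ± 0.169 and 1.48 ± 0.104 summits (exact permutation p = 0.905). The median fold enrichment of the strongest summit was 3.96 ± 0.278 in F0 CD and 4.17 ± 0.298 in F0 WD (exact permutation p = 0.281). The adjusted p over these 6 measures was 0.783 for each except the number of summits, with 0.905. A p above the threshold does not show that the diets were alike, and the smallest p that the 210 assignments allow is 0.00476.

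The CA/TG-rich arrays had a peak in 82.1 ± 11.6% of regions per F0 CD library (SD, n = 6) and 79.6 ± 16.4% per F0 WD library (SD, n = 4), the other arrays in 79.9 ± 13.5% and 73.7 ± 12.1%, and the regions without an array in 59.5 ± 21% and 53.6 ± 18%. These differences lay within the spread between mice and were not tested.

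**Figure D5:**
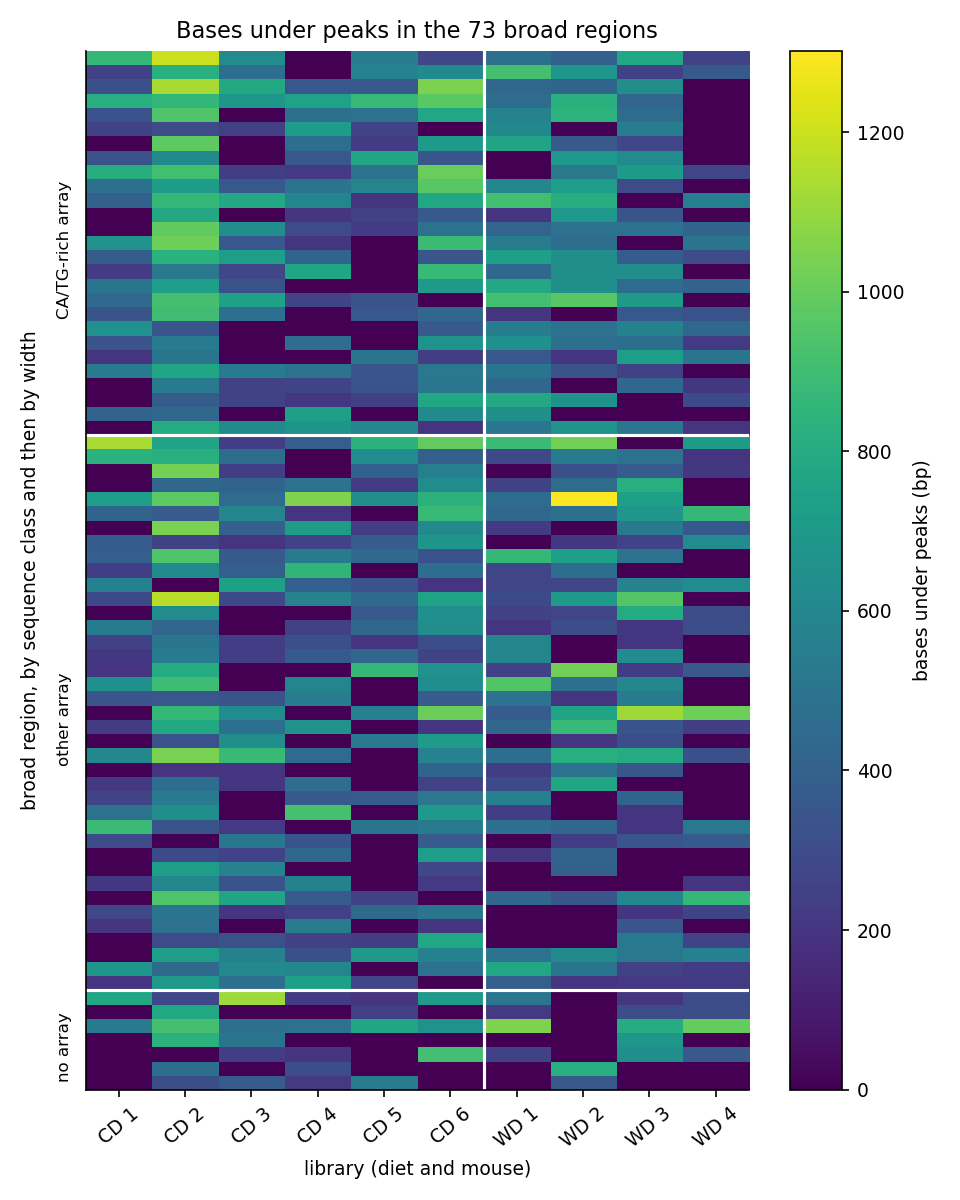
Bases under peaks (colour, in bp) in each of the 73 broad regions (rows, grouped by sequence kind and ordered by width within it) and each library (columns, F0 CD 1 to 6 and F0 WD 1 to 4, with a white line between the diets). The darkest cells are regions without a peak in that library. CD 2 has a peak in 70 regions, the most, and WD 4 in 41, the fewest.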

How the data were processed

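Sperm ATAC-seq peak lists of 10 mice were used, 1 list per library. Per the methods and labels, the authors trimmed reads (Trim Galore 0.6.10), aligned them to mm10 (Bowtie2 2.4.5, up to 20 alignments), removed duplicates (Picard 2.24.0) and alignments of quality under 5, kept short fragments, and called peaks in each library (MACS2 2.2.7.1, q of 0.05, shift of -100, extension of 200). The deposited columns hold a score made from the q value, the fold enrichment, and −log10 p and q values of each summit. Depth is not recorded, so the lists limit the precision.

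Merging, overlap counts, Fisher's exact tests and exact permutation tests were run in scipy 1.17.1 under Python 3.11.15, with tables in pandas 2.3.3, with Benjamini-Hochberg adjustment over all 24763 regions in at least 2 libraries, and were tested on simulated data. Sequence came from GRCm38 and genes from GENCODE M21. Each library was counted as 1 replicate, and p-values set the difference between diets against the variation between these libraries, 1 per mouse. That variation includes differences in list length. Named regions were the 10 widest, the 5 with the most summits, the 5 with the highest fold enrichment, those past an unadjusted p of 0.05 and those at the width limit, plus others chosen after their values were seen. Some sequences and 1 gene list are not reported here. The regions, the gene and marker lists and the tests were chosen with earlier results of these data known. Alternatives changed the q limit, list length, gap, width, number of libraries, test version, libraries and pairing.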

Additional observations from a re-analysis of the deposited data

Results flagged for a closer look

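The kb of broad regions under peaks stood apart in 1 library. F0 WD replicate 4 had 16.918 kb, far below the other 3 F0 WD libraries, which had 29.5, 30.7 and 29.9 kb. Its peak list was also the shortest, with 13366 peaks. Of the 12 groups examined this way, chance alone marks about 1 in 20.

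Regions of at least 1000 bp were also seen outside the autosomes, which the rule leaves out. On chromosome X there were 5 such regions, with peaks in 7 to 10 libraries, and on unplaced scaffolds there were 4. Both numbers are above 3, the count set beforehand for a closer look, which is not a statistical limit.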

How the results depend on the processing

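Of 240 values under 20 alternatives, 199 kept their direction and their side of the threshold or stayed close, 29 moved and 12 changed sign. The cause was not tested except where fewer or more regions entered by construction. With a width of at least 800 bp there were 362 broad regions (median width 882 bp), with 1 detected more often in F0 WD and 5 in F0 CD, and 2 with more bases in F0 WD and 16 in F0 CD. These are 0.276, 1.38, 0.552 and 4.42% of the 362, where 0.553, 0.468, 0.767 and 0.828% of all regions were called. The regions were chosen by width and number of libraries here too, so these shares are not comparable. At 1500 bp there were 5 (median 1518 bp), none called toward F0 CD by bases (0), 0% with a start site within 1 kb and 80% with a CA or TG run. With 2 to 10 libraries there were 119, 1 with more bases in F0 WD. Counting only regions with a single-list peak of 1000 bp left 10 (median 1274.5 bp, 51.3% masked, 0% with a start site within 1 kb, 0 with more bases in F0 CD), and the difference in peak width, F0 WD minus F0 CD, turned to 14.9 bp. With q under 0.01, 2 regions were detected more often in F0 CD, 1 had more bases in F0 WD, and the difference in summits turned to 0.00765. With equally long lists, 1 region was detected more often in F0 CD. The difference in the percent of a list turned to -0.00125 with equally long lists, -0.00283 at 800 bp, -0.00144 at 1500 bp and -0.00467 with single-list peaks.

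Leaving out each library in turn gave 0 to 0 regions detected more often in F0 WD, 0 to 1 in F0 CD (1 where replicate 5 of F0 CD or replicate 4 of F0 WD was left out), 0 to 1 with more bases in F0 WD and 1 to 3 in F0 CD (1 without F0 CD replicate 1, 2 or 6). The F0 WD minus F0 CD differences ranged from -5.83 to 0.833 regions (positive without F0 WD replicate 4), -5.08 to 0.178 kb (positive without F0 CD replicate 2), -44.7 to -8.80 bp of peak width, -0.0550 to 0.0341 summits (also 0.0297 without F0 CD replicate 6 and 0.0291 without F0 WD replicate 4), 0.114 to 0.326 in fold enrichment and -0.00200 to 0.0285 in the percent of a list (negative without F0 CD replicate 2). None of these had an exact permutation p under 0.111.

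The replicate block over the 4 same-numbered pairs called 0 regions by bases in F0 CD, but its smallest p is 0.125, so it could not pass 0.05. Same-numbered samples correlated at -0.0125 to 0.0696, so the numbers were not taken to pair the mice. The methods give only a minimum depth for all samples, and the lists do not record the depth of each library. At 9 to 45 reads per strongest summit a missing peak cannot be told from a weak one.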
